A study of Rattus norvegicus with 192 samples.

Results

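The genes described here are 5 membrane transporters through which hepatocytes move drugs, conjugates and organic anions: the efflux pumps Abcb1a, Abcc2, Abcc3 and Abcc4 and the uptake carrier Slco1a4. They were taken from the count table by gene symbol and are 5 of its 21143 symbols. Each has 1 probe, and all 5 passed the filter on low values. Male rat primary hepatocytes on collagen were exposed for 24 h, and RNA was counted with TempO-Seq, a targeted assay in which a pair of detector oligos anneals side by side on each transcript, is ligated and is sequenced. Libraries came from 29 chemicals at 6 doses (174 libraries), from 9 reference chemicals at 1 concentration each, and from 9 wells of the solvent dimethyl sulfoxide (DMSO, 0.1%). Each chemical and dose had 1 library. Doses lay about 3-fold apart, up to 100 µM in 16 series and 33.3 µM in the other 13. The reference chemicals on plate 2 were oltipraz at 30 µM, WY-14,643 and Pregnenolone 16alpha carbinonitrile at 15 µM, sulforaphane at 10 µM, and TCPOBOP and GW 4046 at 1.5 µM. Those on plate 3 were dexamethasone, testosterone and 17beta-estradiol at 10 µM. Every chemical series but triadimefon's (plate 3) was on plates 1 and 2. The strain, the age and whether any libraries came from separate animals or cultures are not given in the sources used here, so p-values speak of the spread among libraries, part of which may be technical.

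Hepatocytes are polarised. The canalicular membrane, toward bile, carries Abcc2 (multidrug resistance-associated protein Mrp2), which exports glucuronide and glutathione conjugates, and Abcb1a (P-glycoprotein), which exports bulky hydrophobic drugs. The basolateral membrane, toward blood, carries Abcc3 (Mrp3) and Abcc4 (Mrp4), which return conjugates and bile acids to the circulation, and Slco1a4 (Oatp2), which takes up organic anions, steroid conjugates and digoxin. In rat liver Slco1a4 is a known target of the pregnane X receptor (PXR), and Abcc2 has been tied to PXR, to the constitutive androstane receptor (CAR) and to the farnesoid X receptor. The oxidant-responsive factor NRF2 is known to act on several Abcc genes.

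Promoters are shown for the 2 members whose dose series are described at most length, 1 efflux pump and 1 uptake carrier. They are 300 bases each, 250 before and 50 after the start site, from RefSeq on GRCr8. Abcc2 lies on chr1:252613875-252672459 and its window is chr1:252613625-252613924, plus strand. Slco1a4 lies on chr4:176441104-176495846 and its window is chr4:176495797-176496096, minus strand. Capitals mark matches on either strand to 4 patterns: the antioxidant response core TGACNNNGC, the AhR core GCGTG, and the nuclear receptor half-sites AGGTCA and AGTTCA.
Abcc2: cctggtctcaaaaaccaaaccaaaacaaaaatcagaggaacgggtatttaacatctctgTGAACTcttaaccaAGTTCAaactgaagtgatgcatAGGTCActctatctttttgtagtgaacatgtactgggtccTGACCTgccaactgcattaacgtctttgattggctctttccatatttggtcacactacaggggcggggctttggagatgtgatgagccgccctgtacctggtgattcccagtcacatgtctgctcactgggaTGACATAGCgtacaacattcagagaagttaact
Slco1a4: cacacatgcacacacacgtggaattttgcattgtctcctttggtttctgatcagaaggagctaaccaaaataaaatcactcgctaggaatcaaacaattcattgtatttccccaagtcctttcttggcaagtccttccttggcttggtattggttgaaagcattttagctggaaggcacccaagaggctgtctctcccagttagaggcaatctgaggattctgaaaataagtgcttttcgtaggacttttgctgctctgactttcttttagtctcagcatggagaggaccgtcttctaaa
In the Abcc2 window AGTTCA was found 2 times, AGGTCA 2 times and TGACNNNGC 1 time, the last at +18 from the start site. The Slco1a4 window held none of the 4 patterns. Of 33469 rat promoters of that length, 14.5% held AGTTCA, 16.2% AGGTCA, 12.1% TGACNNNGC and 29.7% GCGTG. Of the other members, Abcb1a (chr4:26312403-26488456) had no match in its window, Abcc4 (chr15:101948387-102182912) had GCGTG 2 times, and Abcc3 lies on chr10:79793571-79839528.

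Total counts ran from 582071 in the sulforaphane library to 11249014, with a median of 5745085. DMSO replicate 1 stood apart from the other solvent libraries, with a correlation of 0.825 across probes with the solvent mean, that of replicates 2 to 9. Replicates 2 to 9 had 0.954 to 0.992, but each of them is part of that mean and replicate 1 is not. Replicates 2 to 9 were the controls throughout. Among treated libraries 4 had a correlation under 0.9: sulforaphane (0.803), perfluorooctanoic acid (PFOA) at 100 µM (0.830), cyproconazole at 100 µM (0.859) and imazalil at 33.3 µM (0.894). All 7 hepatocyte markers were detected, with summed levels of 24969 to 46242 CPM (counts scaled to the library's total) in the controls, against 43.8 to 80.6 CPM for macrophage, 2.78 to 8.49 CPM for endothelial and 2.13 to 5.25 CPM for stellate markers. Bile duct markers, almost all Epcam, summed to 15.3 to 29.2 CPM. The stellate marker Col1a1 and the bile duct marker Krt7 were at 0 in the controls.

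Abcc2, Abcc3 and Slco1a4 gave counts that could be followed from dose to dose, and Abcb1a and Abcc4 gave few. In the 8 solvent libraries Abcc2 stood at 59.1 to 106 CPM (median 85.2, mean 83.6 ± 17.4 SD). Abcc3 stood at 7.65 to 19.6 CPM (median 15.5, mean 14.5 ± 3.82 SD). Slco1a4 stood at 9.77 to 23.2 CPM (median 17.8, mean 17.1 ± 4.53 SD). For these 3 genes the coefficient of variation among controls, 20.8 to 26.6%, was above the 4.87 to 11.7% that counting alone gives. Abcb1a stood at 0.257 to 2.22 CPM (mean 1.02 ± 0.60 SD) on 1 to 17 counts a library, and Abcc4 at 0.750 to 2.31 CPM (mean 1.45 ± 0.59 SD) on 3 to 17 counts. Abcb1a reached the low-value minimum of 1.741 CPM in only 10 libraries and Abcc4 in 35, so small changes in either were not detectable at this depth. In these bulk samples fewer cells of a type and less RNA per cell cannot be told apart.

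**Figure D1:**
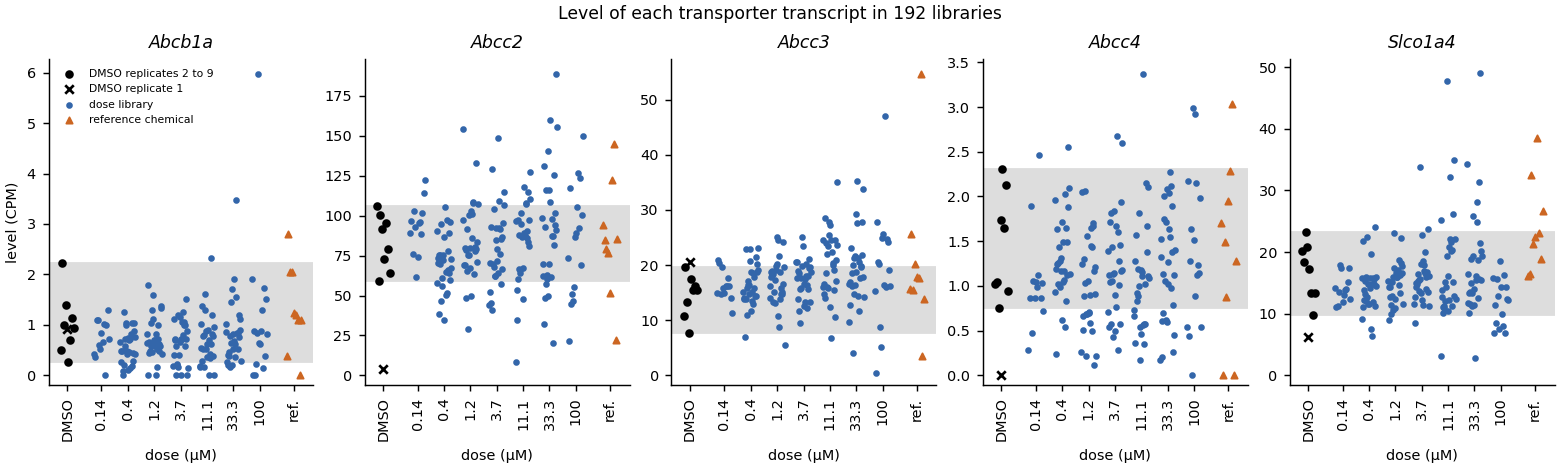
Level of each of the 5 transporters (CPM, 1 panel a gene) by dose in µM, 1 point a library. Doses are evenly spaced columns, with DMSO and the reference chemicals each in a column of their own. Black points are DMSO replicates 2 to 9, the cross is DMSO replicate 1, blue points are the 29 chemicals, orange triangles are reference chemicals, and the grey band is the range of DMSO replicates 2 to 9. Abcc3 points that leave the band do so mostly upward at every dose. Slco1a4 is above the band in 6 of 29 libraries at 33.3 µM and in 0 of 16 at 100 µM.

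The dose tests asked for which chemicals a transporter had a slope against the dose score log2(1 + dose in µM). Such a slope does not test whether every dose step went the same way. Only 3 of the 145 dose trends (29 chemicals, 5 members) passed an adjusted p of 0.05: Abcc2 fell with PFOA, and Abcc2 and Abcc3 rose with dithiopyr, a pyridine herbicide. Over all 11055 tested probes 1.66% of trends passed, so a count of 3 is near the background. Higher trends made up 0.95% and lower trends 0.713% of all, against 2 and 1 among the members. A trend is given as the fitted log2 change at 33.3 µM against solvent with its SE, from edgeR's quasi-likelihood F test with a plate term, and p-values were adjusted by Benjamini-Hochberg over all tested probes of that chemical. Where a fit left out all doses of 33.3 µM or more, the change is extrapolated beyond the doses fitted. Fitted trends were above 0 for 24 of 29 chemicals with Abcc3, 19 with Abcc2, 14 with Abcc4, 11 with Abcb1a and 9 with Slco1a4. All trends share the same solvent libraries, so the signs for a gene are not independent, and the share over all probes is not given here. As a second measure, 117 of 870 member levels lay above all 8 control libraries and 124 below, 13.4% and 14.3%, where 11.2% and 11.5% of all probe values did.

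**Figure D2:**
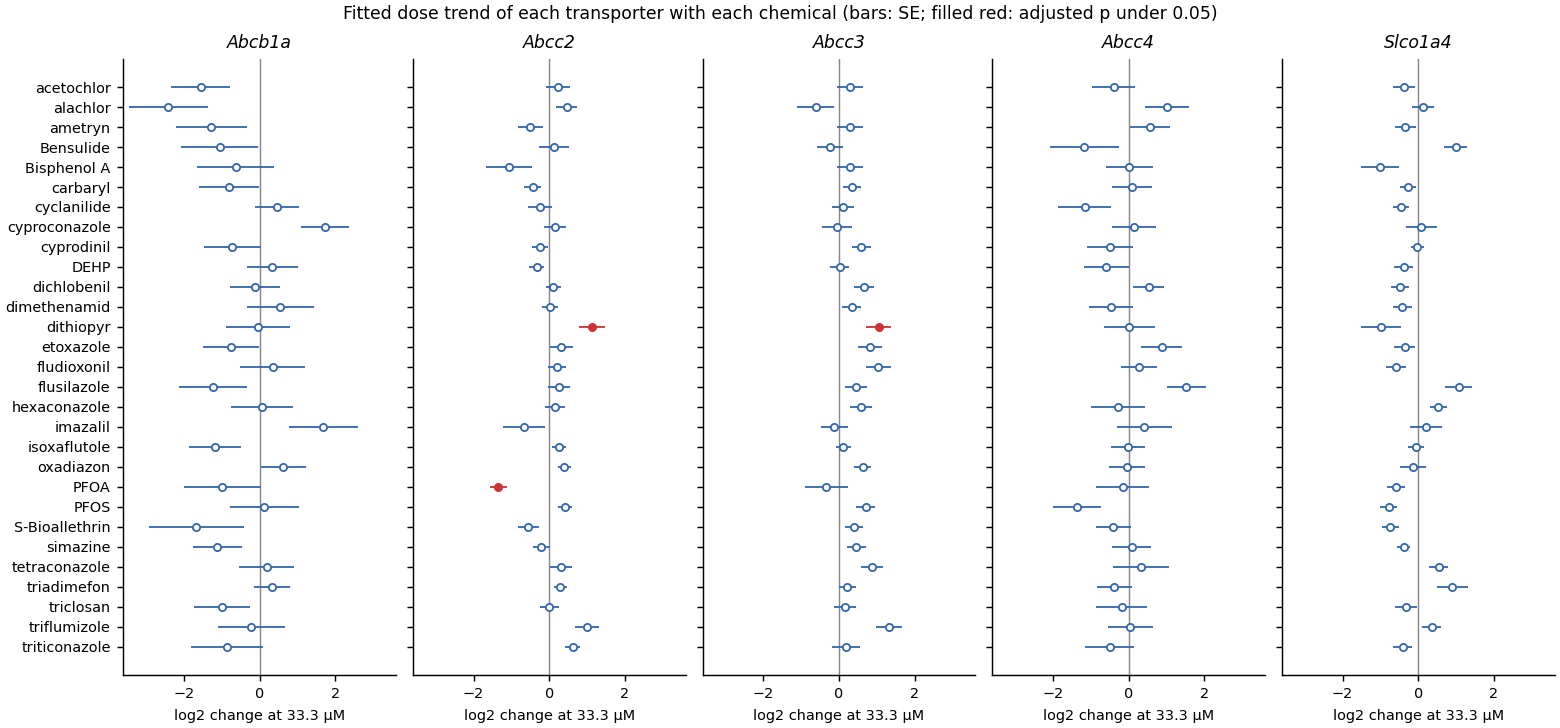
Fitted log2 change at 33.3 µM (points) with its SE (bars) for 29 chemicals and each of the 5 transporters, against solvent. Filled red points have an adjusted p under 0.05. The 3 filled points are Abcc2 with PFOA (-1.34), Abcc2 with dithiopyr (1.13) and Abcc3 with dithiopyr (1.05), and the bars of Abcb1a are the widest (median SE 0.82).

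Abcc2, the canalicular conjugate pump, fell with PFOA, a perfluorinated carboxylic acid. From 0.4 to 100 µM its level was 70.2, 69.4, 45.6, 34.9, 31.9 and 21.3 CPM. The 4 highest doses all lay below every control library, and 13.9% of tested probes had 3 or more of the 6 PFOA libraries below. The fitted change was -1.34 ± 0.22 (adjusted p = 0.00506), where 3.74% of probes passed for PFOA. The library at 100 µM is 1 of the 4 that stood apart, and without it the change was -1.54 (adjusted p = 0.00814). Summed hepatocyte markers in that library were 44419 CPM. This was within the control range of 24969 to 46242 CPM but near its top, and the control median was 27288 CPM. Stellate markers summed to 10.8 CPM, above that range, and macrophage and bile duct markers to 37.7 and 9.54 CPM, below it. Their part in the result was not tested. In the same library Abcc3 was at 1 count (0.434 CPM).

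With dithiopyr Abcc2 went the other way. From 0.14 to 33.3 µM it stood at 61.7, 34.8, 49.8, 71.9, 118 and 159.8 CPM. The levels at 0.4 and 1.2 µM lay below the control range and those at 11.1 and 33.3 µM above it. Its fitted change was 1.13 ± 0.34 (adjusted p = 0.0414), where 13.0% of all probes passed for this chemical. The call was lost in 13 of 23 alternatives. Without the highest dose the change was 0.77 (adjusted p = 0.602), without a plate term 0.76 (adjusted p = 0.128), and with 1 model for all chemicals 0.49 (adjusted p = 0.287). It was also lost without DMSO replicate 3, 4 or 8 (adjusted p = 0.0768, 0.0518 and 0.0567) and without the library at 0.14, 0.4, 1.2 or 11.1 µM (adjusted p = 0.0677, 0.0533, 0.0517 and 0.0759).

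Among the azole fungicides, which inhibit the fungal sterol demethylase, triticonazole and triflumizole held the highest Abcc2 levels. With triticonazole, from 0.4 to 100 µM, Abcc2 was 72.7, 107, 107, 128, 156 and 150.2 CPM. All doses but the lowest were above every control, and 17.5% of tested probes were above every control in 3 or more of this chemical's 6 libraries. Its fitted change was 0.62 ± 0.19 (adjusted p = 0.0860). DESeq2 gave an adjusted p of 0.0414. With triflumizole, from 0.14 to 33.3 µM, Abcc2 was 123, 66.9, 71.1, 115, 110.2 and 189 CPM, the last being the highest of all libraries (95% counting interval 178 to 200 CPM). Here 4 of 6 libraries lay above the controls, as 3 or more did for 7.77% of probes, and the change of 1.002 ± 0.32 was not called (adjusted p = 0.310).

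**Figure D3:**
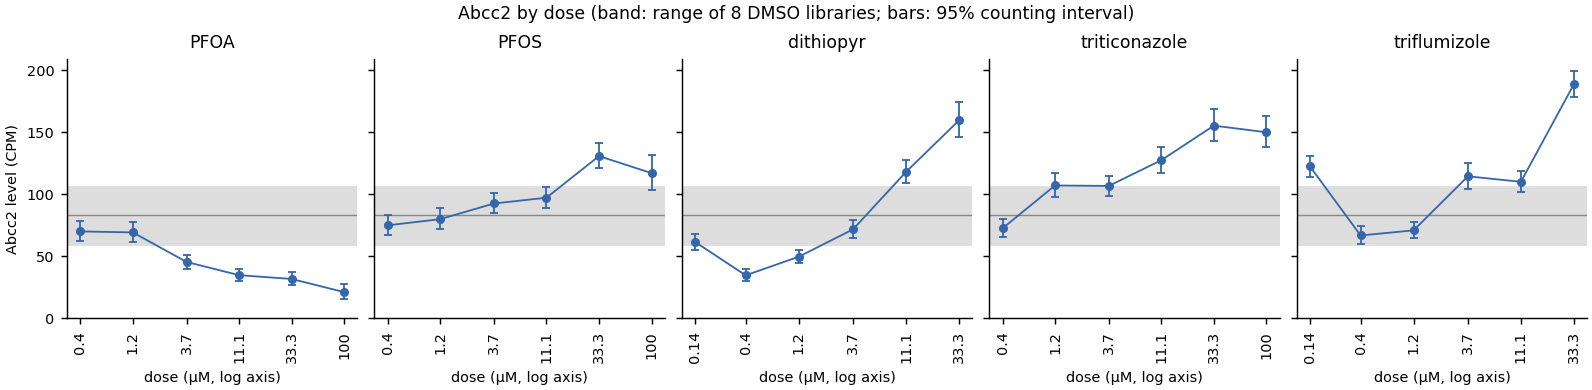
Abcc2 level (CPM) against dose in µM (log axis) for PFOA, perfluorooctanesulfonate (PFOS), dithiopyr, triticonazole and triflumizole, 1 library a point, with 95% exact Poisson counting intervals as bars. The grey band is the range and the line the mean of DMSO replicates 2 to 9. PFOA declines to 21.3 CPM, while triticonazole is above the band from 1.2 µM upward and triflumizole ends at 189 CPM.

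Low Abcc2 levels were spread over several chemicals. With S-Bioallethrin, a pyrethroid insecticide, from 0.4 to 100 µM it was 38.1, 48.2, 41.0, 60.4, 48.2 and 44.4 CPM. Low levels were seen at the lowest dose already, and 5 of 6 libraries lay below every control, as 3 or more did for 13.8% of probes. The trend was -0.55 (adjusted p = 0.315). With Bisphenol A, from 0.14 to 33.3 µM, Abcc2 was 96.6, 57.8, 97.4, 52.3, 8.65 and 62.5 CPM, and the library at 11.1 µM was the lowest treated library of all (95% counting interval 6.46 to 11.3 CPM). That library also had the low Slco1a4 level of 3.16 CPM. Without the highest dose Bisphenol A trends were called for Abcc2 (-3.59 ± 0.86, adjusted p = 0.0162) and Slco1a4 (-2.97 ± 0.61, adjusted p = 0.00816), where 10.6% of probes passed. Both changes are extrapolated to 33.3 µM from doses up to 11.1 µM, and the measured Abcc2 level at 33.3 µM was 62.5 CPM. Without the 11.1 µM library as well the 2 trends were -1.23 (adjusted p = 0.668) and -2.08 (adjusted p = 0.492), neither called, in a fit where 0 probes passed. Abcc2 and Slco1a4 each lay below every control in 3 of 6 Bisphenol A libraries, and in 2 of 6 with TMM scaling. Over all dose libraries 11.5% of probe values lay below every control.

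Abcb1a, the P-glycoprotein gene, had no called trend when each chemical was fitted on its own. With 1 model for all chemicals, where 6.54% of all trends passed, it was called with cyproconazole (1.99 ± 0.48, adjusted p = 0.000656) and imazalil (1.82 ± 0.52, adjusted p = 0.00342). With cyproconazole, a triazole fungicide, from 0.4 to 100 µM it was 1.03, 1.11, 0.411, 1.61, 1.71 and 5.97 CPM. Only the highest dose exceeded the control range, on 8 counts (95% counting interval 2.58 to 11.8 CPM), in a library that stood apart. The fitted change was 1.72 ± 0.64 (adjusted p = 0.104), and without that dose 0.90 (adjusted p = 0.783). In that library hepatocyte markers summed to 16685 CPM, below the control range, and stellate markers to 16.4 CPM, above it. The part of these in the result was not tested. Imazalil, an imidazole fungicide, gave 3.48 CPM at 33.3 µM on 23 counts (95% counting interval 2.20 to 5.22 CPM), also in a library that stood apart.

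Abcc3, the basolateral conjugate pump, was more often high than low. It lay above every control in 62 of 174 dose libraries and below in 6, where 11.2% and 11.5% of all probe values did. Levels above the range were seen from the lowest doses on: in 3 of 13 libraries at 0.14 µM and 6 of 29 at 0.4 µM. At 1.2 and 3.7 µM there were 7 and 8 of 29. At 11.1 µM it was above the range in 16 of 29 libraries and at 33.3 µM in 14 of 29, with backgrounds of 11.3% and 12.6%. The solvent range rests on few libraries: without DMSO replicate 3, the highest control for Abcc3, the count above was 91, and with replicate 1 added it was 45.

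Abcc3 rose with dithiopyr. From 0.14 to 33.3 µM its level was 15.8, 18.7, 10.7, 16.6, 27.3 and 35.2 CPM. The 2 highest doses lay above every control. The fitted change was 1.05 ± 0.32 (adjusted p = 0.0449), and without the highest dose it was 0.78 (adjusted p = 0.578). The call was lost in 12 of 23 alternatives, among them those without DMSO replicate 2, 4, 7, 8 or 9 (adjusted p = 0.0830, 0.0567, 0.0543, 0.0618 and 0.0571) and without the library at 0.14 or 11.1 µM (adjusted p = 0.0645 and 0.0854). With DMSO replicate 1 added the change was 0.58 (adjusted p = 0.465). Triflumizole gave 11.4, 19.1, 19.7, 13.2, 35.1 and 33.7 CPM, with the step between 3.7 and 11.1 µM. Its change of 1.33 ± 0.34 was the largest for Abcc3 over the 29 chemicals and was not called (adjusted p = 0.137), while DESeq2 gave an adjusted p of 0.0303.

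Other chemicals had Abcc3 levels above the control range without a dose trend that passed. With dichlobenil, a nitrile herbicide, it was 22.9, 25.04, 23.4, 27.8, 29.2 and 25.7 CPM from 0.4 to 100 µM. With cyprodinil, an anilinopyrimidine fungicide, it was 20.8, 19.8, 25.1, 25.4, 21.7 and 24.8 CPM. In both series all 6 libraries were above every control, already at 0.4 µM, where 11.8% and 6.73% of probes had 3 or more of 6 above. The fitted changes were 0.65 (95% interval 0.10 to 1.21, adjusted p = 0.453) and 0.58 (95% interval 0.05 to 1.12, adjusted p = 0.740). With 1 model for all chemicals dichlobenil was called (0.74, adjusted p = 0.0235). Fludioxonil, a phenylpyrrole fungicide, gave 15.2, 8.79, 13.4, 6.81, 14.3 and 47.1 CPM, and its 100 µM library was the second highest of all (95% counting interval 41.1 to 53.8 CPM). Its fitted change was 1.04 ± 0.34 (adjusted p = 0.372).

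Abcc4, the cyclic nucleotide and bile acid exporter, had no called trend in edgeR's fits by chemical, and 2 at an unadjusted p under 0.05. Flusilazole, a triazole fungicide, had the lowest p for this gene among the higher trends. From its lowest to its highest dose Abcc4 was 0.993, 1.06, 1.64, 2.68, 3.37 and 2.28 CPM. The fitted change was 1.53 ± 0.51 (adjusted p = 0.322), and only 2 libraries exceeded the control range. PFOS had the lowest fitted change, -1.36 (adjusted p = 0.740). Abcc4 was at 0 counts in 1 dose library, cyclanilide at 100 µM, which allows up to 0.844 CPM (3 counts). It was also at 0 counts with GW 4046, which allows up to 1.05 CPM, and with sulforaphane, where the small library allows up to 5.15 CPM.

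Slco1a4, the uptake carrier, had its highest level below the highest dose in several series, among them triadimefon, cyproconazole and oxadiazon. Each dose had 1 library, the place of a peak was not tested, and the share of all probes with such a peak is not given here. With triadimefon, from 0.4 to 100 µM, the Slco1a4 level was 24.1, 22.3, 23.7, 35.0, 49.0 and 12.4 CPM. The level at 33.3 µM was the highest of all libraries (95% counting interval 44.2 to 54.2 CPM), and the level at 100 µM was inside the control range. Over all 6 doses the fitted change was 0.89 ± 0.41 (adjusted p = 0.396), and without the highest dose it was 1.83 ± 0.27 (adjusted p = 0.00280), where 0.552% of probes passed. This cut ends at the observed peak, so its p-value is no test of a rise. When the 33.3 µM library was left out as well, the change extrapolated to 33.3 µM was 1.93 and no longer called (adjusted p = 0.308). All triadimefon libraries were on plate 3, whose own solvent libraries stood at 9.77, 13.4 and 13.4 CPM, a mean of 12.2 CPM against 19.3 and 20.4 CPM on plates 1 and 2. This difference among plates had an unadjusted p of 0.0102 in edgeR's test (adjusted p = 0.855).

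Cyproconazole gave a similar shape on plate 2. Slco1a4 was 22.4, 23.1, 33.8, 47.8, 25.9 and 7.46 CPM from 0.4 to 100 µM. It peaked at 11.1 µM (95% counting interval 42.9 to 53.0 CPM) and lay below every control at 100 µM, in the library that stood apart. The trend over all doses was 0.08, and without the highest dose 0.88 ± 0.32 (adjusted p = 0.300). Without the 2 highest doses it was 1.69 ± 0.30 (adjusted p = 0.0460), where 0.199% of probes passed. That cut ends at the observed peak and was chosen after the values were seen, so its p-value is no test of a rise. With 1 model for all chemicals the trend over all doses was 0.94 ± 0.26 (adjusted p = 0.00343). Oxadiazon, an oxadiazolone herbicide, gave 15.9, 13.3, 15.9, 20.3, 31.4 and 6.94 CPM, again with its peak at 33.3 µM. Its trend over all doses was -0.14 (adjusted p = 0.912), without the highest dose 0.56 (adjusted p = 0.999), and without the 2 highest -0.17 (adjusted p = 0.980).

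Flusilazole and Bensulide, an organophosphate herbicide, stayed high to the top of their ranges. With flusilazole Slco1a4 was 13.1, 7.59, 16.0, 16.9, 32.1 and 28.1 CPM in order of dose, a fitted change of 1.07 ± 0.36 (adjusted p = 0.320). With Bensulide it was 14.1, 15.8, 15.3, 11.6, 25.3 and 34.2 CPM, a change of 0.99 ± 0.30 (adjusted p = 0.274). In each series the 2 highest doses were above every control. Hexaconazole ended at 24.9 CPM and tetraconazole peaked at 26.2 CPM at the second highest dose, and neither trend was called.

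**Figure D4:**
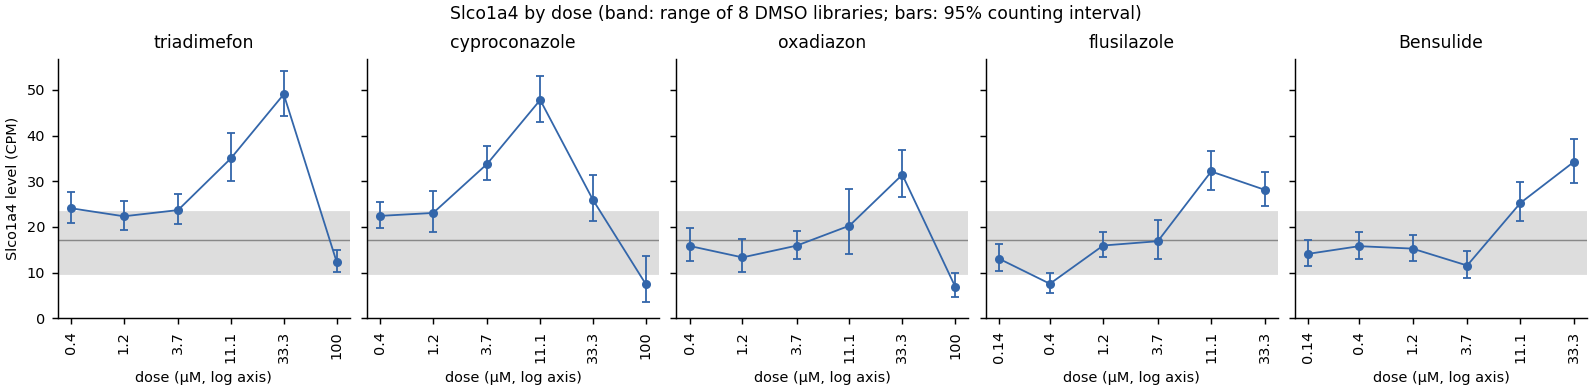
Slco1a4 level (CPM) against dose in µM (log axis) for triadimefon, cyproconazole, oxadiazon, flusilazole and Bensulide, 1 library a point, with 95% exact Poisson counting intervals as bars. The grey band is the range and the line the mean of DMSO replicates 2 to 9. Triadimefon, cyproconazole and oxadiazon drop at 100 µM to 12.4, 7.46 and 6.94 CPM, after peaks of 49.0, 47.8 and 31.4 CPM.

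Over all chemicals Slco1a4 exceeded the control range in 5 of 29 libraries at 11.1 µM, in 6 of 29 at 33.3 µM and in 0 of 16 at 100 µM. The share of all probe values above the range at these doses was 11.3%, 12.6% and 16.7%. At 100 µM 5 of 16 Slco1a4 levels lay below every control, where 19.1% of probe values did. These were oxadiazon and PFOA (both 6.94 CPM), cyproconazole (7.46 CPM), fludioxonil (7.96 CPM) and S-Bioallethrin (8.54 CPM). The lower bound rests on DMSO replicate 8: over all doses 12 Slco1a4 levels lay below every control, and 65 without that library. The lowest Slco1a4 level of any treated library was 2.85 CPM, with dithiopyr at 33.3 µM. The 2 lowest fitted p-values among falling trends belonged to S-Bioallethrin (-0.74 ± 0.23, adjusted p = 0.106, DESeq2 adjusted p = 0.0476) and PFOS (-0.79 ± 0.23, adjusted p = 0.384), and neither passed edgeR's test.

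The reference chemicals gave 1 library each, so the spread in their tests is that of the DMSO libraries and nothing repeats the treated library. In 45 tests of a single library against solvent 2 passed, and 3.66% of all probes' tests did. Abcc3 was high in the library of oltipraz, a known NRF2 activator. The 3 solvent libraries of plate 2 held 13.2, 7.65 and 17.5 CPM and the oltipraz library 54.6 CPM (95% counting interval 47.3 to 62.8 CPM), the highest of all. The fitted change was 1.92 ± 0.38 (adjusted p = 0.0450), where 1.3% of probes passed. The call was lost without DMSO replicate 4, 7, 8 or 9 (adjusted p = 0.130, 0.0817, 0.106 and 0.0914) and with replicate 1 added (adjusted p = 0.809). In this library Abcc2 was at 145 CPM, above every control, with a change of 0.54 that was not called (adjusted p = 0.472), and Abcc4 was at 3.04 CPM on 11 counts.

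Sulforaphane, the other NRF2 activator, had the smallest library and the lowest correlation with solvent. Its Abcc2 level was 22.3 CPM on 13 counts (95% counting interval 11.9 to 38.2 CPM) against 72.7 to 101 CPM in the solvent libraries of plate 2. Abcc2 fell by 1.57 ± 0.49 on the log2 scale (adjusted p = 0.0385). In this library 28.5% of probes passed and the median change of all probes was -1.07. Bile duct markers summed to 127 CPM and stellate markers to 37.8 CPM there, both above the control range, with the bile duct marker Epcam higher by 2.94 and the stellate marker Col3a1 by 3.85. Macrophage markers, at 41.2 CPM, and endothelial markers, at 1.72 CPM, were below the control range. Their part in the result was not tested. The call was lost without DMSO replicate 4 or 5 (adjusted p = 0.0658 and 0.0523). Abcc3 was at 3.44 CPM on 2 counts.

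The highest reference levels of Slco1a4 were those of dexamethasone, Pregnenolone 16alpha carbinonitrile and testosterone. Dexamethasone, a glucocorticoid that also activates PXR at high concentration, gave 38.5 CPM (95% counting interval 34.6 to 42.7 CPM), testosterone gave 26.6 CPM and 17beta-estradiol 16.1 CPM. All 3 were above the 9.77 to 13.4 CPM of the plate 3 solvent libraries, and 17beta-estradiol was inside the range of all 8 control libraries. The dexamethasone change of 1.64 ± 0.27 was not called (adjusted p = 0.0752, DESeq2 adjusted p = 0.00023), and 0.127% of probes passed in that library. Pregnenolone 16alpha carbinonitrile, the classical rodent PXR ligand, gave 32.5 CPM against 17.2 to 23.2 CPM on plate 2, a change of 0.53 ± 0.28 (adjusted p = 0.313). TCPOBOP, a CAR ligand in mice, gave 21.3 CPM, within the control range. WY-14,643, a PPAR alpha agonist, gave an Abcc2 level of 51.7 CPM, below every control, with a change of -0.87 ± 0.35 (adjusted p = 0.493).

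**Figure D5:**
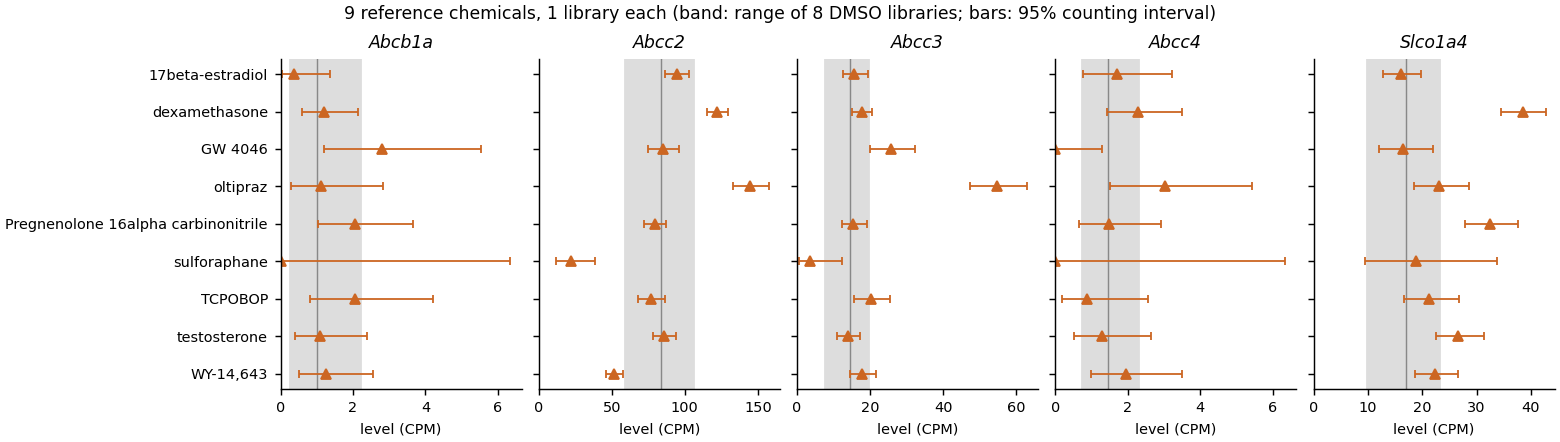
Level (CPM) of each of the 5 transporters in the 9 reference libraries, with 95% exact Poisson counting intervals as bars and the range of DMSO replicates 2 to 9 as a grey band. Abcc3 is highest with oltipraz (54.6 CPM), Slco1a4 with dexamethasone (38.5 CPM), and Abcc2 is lowest with sulforaphane (22.3 CPM).

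Related chemicals were compared at shared doses as 8 pairs, giving 40 differences between fitted trends, of which 2 passed, and 1.72% of all probes' differences did. PFOA and PFOS share a perfluorinated tail and differ in the acid group, a carboxylate against a sulfonate. From 0.4 to 100 µM Abcc2 with PFOS was 75.1, 80.1, 92.7, 97.4, 131 and 117 CPM, with the 2 highest doses above every control. The PFOA trend was lower than the PFOS trend by a log2 difference of -1.74 ± 0.20 (95% interval -2.16 to -1.32, adjusted p = 4.61e-05), where 4.03% of probes passed for this pair. Without the highest shared dose it was -1.93 (adjusted p = 0.000211). The PFOS trend itself was 0.42 ± 0.18 (adjusted p = 0.706). For Slco1a4 the pair differed by 0.24 (95% interval -0.27 to 0.75, adjusted p = 0.636) and for Abcc3 by -1.205 (95% interval -2.17 to -0.24, adjusted p = 0.157).

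Cyproconazole and triticonazole are both triazoles. Their Abcb1a trends differed by 2.76 ± 0.79 (95% interval 1.12 to 4.40, adjusted p = 0.0351), where 9.65% of probes passed. With triticonazole Abcb1a was 0.753, 0.423, 0.153, 0, 0.28 and 0.812 CPM from 0.4 to 100 µM, and the count of 0 at 11.1 µM allows up to 0.650 CPM (3 counts). Counts this low make the size imprecise: without the highest shared dose the difference was 4.29 (adjusted p = 0.0695), and with the library score as a covariate the adjusted p was 0.121. Their Slco1a4 trends differed by 1.11 (95% interval 0.23 to 1.98, adjusted p = 0.0907). The separate probe named Slco1a2, which RefSeq lists as a synonym of Slco1a4, differed by 4.75 ± 1.39 in the same edgeR test (adjusted p = 0.0378). Its mean in the controls was 2.01 CPM, and which transcript each probe reads could not be checked.

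The other pairs had no called difference. Among the imidazoles, triflumizole minus imazalil was 1.51 ± 0.52 for Abcc2 (95% interval 0.42 to 2.60, adjusted p = 0.108) and 1.15 ± 0.38 for Abcc3 (adjusted p = 0.101). Among the triazoles, flusilazole minus hexaconazole was 0.25 for Slco1a4 (95% interval -0.43 to 0.94), and hexaconazole minus tetraconazole -0.08 (95% interval -0.56 to 0.41). For the chloroacetamide herbicides, alachlor minus acetochlor was -1.05 for Abcc3 (95% interval -2.01 to -0.09, adjusted p = 0.251). For the triazine herbicides, ametryn minus simazine was -0.30 for Abcc2 (95% interval -1.01 to 0.41).

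Other transporters were read from lists that do not include the members. Of 8 tested other efflux transporters over 29 chemicals, 0 trends rose and 2 of 232 fell. Both were with dithiopyr: the bile salt export pump Abcb11 (-1.53 ± 0.31, adjusted p = 0.00532) and the phospholipid flippase Atp8b1 (-0.83 ± 0.20, adjusted p = 0.0132). Of 11 tested other uptake transporters 1 trend rose and 19 of 319 fell, 6.27% against 1.66% for all probes. The organic anion carriers Slco1a1 and Slc22a8 each fell with 7 chemicals. The bile acid carrier Slc10a1 fell with 1.

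The named genes were read where a member was called. With dithiopyr Slco1a1 fell by 1.90 ± 0.32 (adjusted p = 0.00198), Slc22a18 by 1.16 ± 0.24 (adjusted p = 0.00623) and the liver organic anion carrier Slco1b2 by 1.68 ± 0.43 (adjusted p = 0.0190). With PFOA Slco1a1 fell by 1.15 ± 0.19 (adjusted p = 0.00526) and Slc22a23 rose by 1.39 ± 0.28 (adjusted p = 0.0164). In the small sulforaphane library the uptake genes Slc10a1, Slc22a8 and Slc22a18 changed by 1.63, -2.29 and -1.15. The efflux genes Atp8b1, Abcc10 and Abcg2 changed by -10.2, -8.84 and -1.19 there. With oltipraz Slco1a1 fell by 1.87 ± 0.23 (adjusted p = 0.00612).

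Receptors and their targets were read in the same chemicals. With dithiopyr 5 of 9 receptor genes fell and 0 rose, among them the PXR gene Nr1i2 (-1.35 ± 0.24), the retinoid partner Rxra (-0.89 ± 0.18), the bile acid receptor Nr1h4 (-1.19 ± 0.32) and Ppara (-2.08 ± 0.58). Of 12 NRF2 targets 9 rose and 0 fell, with a median change of 1.29 against -0.01 for all probes. They included the aldo-keto reductase Akr1b8 (3.06 ± 0.49), the sulfiredoxin Srxn1 (1.95 ± 0.32) and the glutathione reductase Gsr (1.58 ± 0.33). Of 9 tested targets of CAR and PXR 4 rose and 0 fell, with a median of 0.71: the glutathione transferase Gsta2 (2.67 ± 0.19), the glucuronosyltransferase Ugt2b1 (1.68 ± 0.19) and the P450 genes Cyp3a23/3a1 (1.34 ± 0.24) and Cyp2b2 (4.33 ± 0.97). In the same series 6 of 7 hepatocyte markers fell, and their sum at 33.3 µM, 13814 CPM, was the lowest of all dose libraries. The macrophage markers Clec4f (-1.24) and Csf1r (-1.71) fell too, and the macrophage sum at 33.3 µM, 37.7 CPM, was below the control range. The part of these in the transporter values was not tested.

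With PFOA 2 of 12 NRF2 targets rose and 1 fell, with a median change of -0.17 against -0.04 for all probes, and the quinone reductase Nqo1 fell by 0.74 ± 0.19 (adjusted p = 0.0441). Targets of CAR and PXR had a median of 0.57. The P450 gene Cyp2b2 rose by 3.55 ± 0.56 (adjusted p = 0.00385) and the P450 reductase gene Por by 1.40 ± 0.23 (adjusted p = 0.0052), while Abcc2 fell. Over all 29 chemicals 28.4% of trends of CAR and PXR targets passed (72 rose, 2 fell), as did 11.5% for NRF2 targets (39 rose, 1 fell) and 12.9% for AhR targets (13 rose, 2 fell).

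In the oltipraz library 7 of 12 NRF2 targets rose, among them Nqo1 (2.56 ± 0.17), Srxn1 (2.52 ± 0.19), Gclc (2.16 ± 0.19) and Txnrd1 (2.15 ± 0.17), enzymes of quinone, peroxide, glutathione and thioredoxin chemistry. Hepatocyte markers summed to 15737 CPM there, below the control range. In the sulforaphane library 7 of 12 rose as well, with the heme oxygenase gene Hmox1 at 3.51, but Abcc3 held only 2 counts. The Abcc3 levels of these libraries were 54.6 and 3.44 CPM. Outside the NRF2 list, the AhR target Cyp1a1 changed by 5.95 with oltipraz and 4.59 with sulforaphane. With oltipraz the CAR and PXR targets Cyp2b2, Gsta2 and Ugt2b1 changed by 3.45, 2.76 and 2.01. With sulforaphane Cyp3a2 changed by 1.53, Ugt2b1 by -2.98, and the receptor genes Nr1i2 by -3.02 and Ahr by -3.63. The part of these in the Abcc3 levels was not tested.

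The genes most like each member over all treated libraries, by Pearson's r of log2 CPM with plate means removed, are given as a description. These libraries share plates and solvent and differ in depth. For Abcc2 they were G3bp1 (0.818), Pir (0.774) and Tra2b (0.762). For Abcc3 they were Fech (0.828), Rrp1b (0.799) and Cct6a (0.797). For Slco1a4 they were the acute phase gene Crp (0.661) and the P450 genes Cyp2c11 (0.627) and Cyp3a1 (0.596). Abcb1a was nearest to Prmt1 (0.553), Chchd4 (0.548) and Slc20a1 (0.532), and Abcc4 to Tnfrsf1a (0.38), Gps2 (0.379) and Zcrb1 (0.378). Abcb1a and Abcc4 had low counts, and the part of this in their r was not tested. Between members the highest r was 0.309, for Abcc2 with Abcc3.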

How the data were processed

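The table holds whole-number TempO-Seq read counts per probe for 22253 probes, as deposited. Reads were mapped with Bowtie per the submitters' processing notes; its version and the genome build are not given in the sources used here. Molecular identifiers are not described, so counts need not be independent molecules, and 95% exact Poisson intervals cover counting error only.

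CPM was computed from these counts. The 11055 probes that reached 1.741 CPM, or 10 counts in a library of median depth, in 6 or more libraries were tested with edgeR 4.0.16 (quasi-likelihood F test, TMM scaling, plate as a factor, R 4.3.3, limma 3.58.1). Dose entered as log2(1 + dose in µM). Each chemical was fitted with DMSO replicates 2 to 9, reference libraries singly and pairs as a difference of slopes. Adjusted p under 0.05 was called. DESeq2 1.42.0 was an alternative, as were other scalings, filters, doses and left-out libraries. The library score is a library's position along the departure of DMSO replicate 5 over 5535 probes. The procedure was tested on simulated data. Python 3.11.15, pandas 2.3.3 and scipy 1.17.1 made the summaries.

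Members, lists and tests were chosen with earlier results of these data known. Genes that are no members were named by rule: the 3 most correlated with each member, and up to 4 of each list by adjusted p where a member was called. A gene so named is not reported here. RefSeq lists Slco1a2 as a synonym of Slco1a4, and the table has a separate Slco1a2 probe, so Slco1a4 values are uncertain to that extent. The near copies Abcb1b and Abcb4 of Abcb1a were not analysed here.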

Additional observations from a re-analysis of the deposited data

Results flagged for a closer look

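Abcc2 in DMSO replicate 1 was 4.18 CPM, while the other 8 solvent libraries lay at 59.1 CPM or more. The gap to the next library was 0.538 of the whole range, above Dixon's 95% critical value of 0.493 for 9 libraries. Chance flags about 1 in 20 groups, and this library also had the low correlation with the solvent mean described above.

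The dose trends of 2 pairs of related chemicals differed by a test of the difference itself. Abcc2 differed between PFOA and PFOS by -1.74 on the log2 scale, lower with PFOA. Abcb1a differed between cyproconazole and triticonazole by 2.76, higher with cyproconazole, on counts of 12 or fewer a library.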

How the results depend on the processing

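None of the 12 member results followed through the alternatives changed direction. Slco1a4 with oxadiazon, which was not called, was -0.14 over all doses, 0.56 without the highest dose and -0.17 without the 2 highest. The count of 2 higher trends became 0 with DMSO replicate 1 added, 1 with no filter, 4 with DESeq2, 6 with the library score as a covariate, 0 with dose as a rank, 1 without the highest dose, 0 when adjusted over all chemicals and 8 with 1 model for all chemicals. The count of 1 lower trend became 0 with replicate 1, 2 with DESeq2, 2 with the score, 3 without the highest dose and 2 with 1 model. All probes passed at 0.605% without the highest dose, 4.21% with the score and 6.54% with 1 model. Leaving out 1 DMSO library gave 0 to 2 higher trends. The 2 reference calls became 0 with replicate 1 and 4 with the score, and 0 to 2 when leaving out 1 DMSO library. The 2 pair calls became 0 with replicate 1 and 1 with no filter. The count of 124 member values below every control became 38 with replicate 1, whose inclusion ended all member calls. The causes were not tested.

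Abcc2 with PFOA kept its call in 22 of 23 alternatives (-1.54 to -1.10) and PFOA against PFOS in 14 of 15. Abcc2 with dithiopyr ranged from 0.49 to 1.55 and Abcc3 from 0.58 to 1.38. The sulforaphane call for Abcc2 was lost in 3 of 14 (replicate 1 added, without DMSO replicate 4 or 5). Slco1a4 with dexamethasone passed in 4 of 14. The scaling alternatives for the range counts (122 above and 120 below with TMM), and the left-out doses of triadimefon, cyproconazole, oxadiazon and Bisphenol A, were chosen after seeing the data. In edgeR's test among the plates' solvent libraries 0 probes were called and 472, Slco1a4 among them, had an unadjusted p under 0.05. Another probe per gene was not run, since each member has 1. No paired analysis was possible because replicate numbers only name the DMSO libraries and each treated group has 1 library. Depth limits Abcb1a and Abcc4 most.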
